A study of Mus musculus with 12 samples.

Results

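The IFIT family (interferon-induced proteins with tetratricopeptide repeats) was followed through RNA sequencing of Sp37A3 cells, a dendritic cell line derived from mouse spleen. The 6 mouse genes Ifit1, Ifit1bl1, Ifit1bl2, Ifit2, Ifit3 and Ifit3b were taken from the count table by symbol, out of 55401 genes, and all 6 passed the filter on low counts that left 14079 genes for testing. One line, CtrV, had been transduced with the empty lentiviral CRISPR vector and carries the label SiglecE-expressing. The other, EKO, had been transduced with the same vector plus a guide against Siglece, carries the label SiglecE-knockout, and is a pool of several single-cell clones. Both were grown with GM-CSF and M-CSF, were either left unpulsed or pulsed with ovalbumin protein (OVA), and were then stimulated with lipopolysaccharide (LPS) for 24 hours. Every library therefore comes from LPS-stimulated cells, and the resting level of the family was not measured. Each of the 4 groups held 3 libraries, numbered replicate 1 to 3. Nothing in the labels says that the replicates were separate cultures, so the p-values measure the spread between these libraries, which may be technical.

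The 12 libraries held 27116201 to 39698572 counts each. Siglece mRNA itself was not lower in the cells labelled EKO: it lay at 150.2 to 163 CPM (counts scaled to a common library size) in the 6 CtrV libraries and at 166 to 235 CPM in the 6 EKO libraries, with a log2 fold change of 0.31 (SE 0.08, edgeR adjusted p = 0.0106) in OVA-pulsed cells. The study chose the pooled clones for little or no Siglec-E, and an edit that disrupts a protein need not lower its mRNA, so these counts do not check the label. The edited line is called EKO-labelled here. All 10 dendritic cell markers examined passed the filter, among them Itgax, which encodes CD11c. None of the 5 T cell, 5 B cell or 5 granulocyte markers passed, and 1 of 4 NK cell and 1 of 6 fibroblast and epithelial markers did. The 6 macrophage markers all passed and summed to 1331 to 1517 CPM in CtrV and to 1725 to 1886 CPM in EKO-labelled libraries, and their part in the differences below was not tested.

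IFIT proteins are built from repeated helical motifs that form a pocket for RNA or for partner proteins. IFIT1 binds the end of RNA whose cap lacks 2′-O methylation and blocks its translation, a mark by which viral RNA can be told from the cell's own. IFIT2 and IFIT3 assemble with one another, and members of the family can bind the translation factor eIF3. Their genes are nearly silent in resting cells and are switched on by type I interferon, whose receptor signals through a complex that includes STAT2 and IRF9 to a promoter element called the interferon-stimulated response element (ISRE), or directly by IRF3 when a sensor such as the LPS receptor is engaged.

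The 6 genes lay next to each other on chromosome 19, within chr19:34550694-34650009 of GRCm38, a span of 99316 bases. From the low to the high coordinate the order was Ifit2 on the plus strand (chr19:34550694-34576419), Ifit3 on the plus strand (chr19:34583531-34588731), Ifit1bl1 on the minus strand (chr19:34592891-34601956), Ifit3b on the plus strand (chr19:34607970-34613401), Ifit1bl2 on the minus strand (chr19:34617049-34640743) and Ifit1 on the plus strand (chr19:34640871-34650009). No exon of a member overlapped an exon of another gene, and 1 other annotated gene lay inside the span. The members shared a coding layout. The first coding exon held only 5 coding bases in Ifit1, Ifit2, Ifit3 and Ifit3b, and 32 in Ifit1bl1 and Ifit1bl2, and the rest of the protein was encoded by a single last exon. The coding sequences ran to 470 codons in Ifit2 and Ifit1bl1, 466 in Ifit1bl2, 463 in Ifit1 and 403 in Ifit3 and Ifit3b.

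The promoters were searched for the core of the ISRE, which is GAAA, any 2 bases, then GAAA again, on either strand (TTTC, any 2 bases, TTTC on the other). The search covered the 250 bases upstream of each RefSeq start site (GRCm38.p6). The core was found in 978 of 32851 promoters in the whole table (2.98%), and 59 promoters (0.180%) held it at least 2 times. Among the 6 members, 5 held the core in at least 1 promoter and 4 of them (Ifit1, Ifit1bl2, Ifit3 and Ifit3b) held it 2 times. The stretches below are shown because they carry these matches, printed 5′ to 3′ on the strand of the gene, with the matches in capitals.
Ifit3, chr19:34583348-34583441, plus strand: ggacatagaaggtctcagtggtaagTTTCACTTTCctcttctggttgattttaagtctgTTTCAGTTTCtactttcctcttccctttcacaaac
Ifit3b, chr19:34607744-34607837, plus strand: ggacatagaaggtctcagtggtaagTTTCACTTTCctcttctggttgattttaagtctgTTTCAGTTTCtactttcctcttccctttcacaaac
Ifit1, chr19:34640760-34640838, plus strand: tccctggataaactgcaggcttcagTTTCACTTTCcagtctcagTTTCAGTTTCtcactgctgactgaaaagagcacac
Ifit1bl2, chr19:34640760-34640838, minus strand: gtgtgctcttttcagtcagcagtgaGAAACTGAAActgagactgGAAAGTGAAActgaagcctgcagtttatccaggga
Ifit1bl1, chr19:34602038-34602097, minus strand: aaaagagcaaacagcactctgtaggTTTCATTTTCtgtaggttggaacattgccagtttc

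The Ifit3 and Ifit3b stretches were identical over all 94 bases. Ifit1 and Ifit1bl2 are transcribed away from each other from RefSeq starts 146 bases apart, so the 79-base stretch between them is a single piece of DNA read on both strands, and its 2 matches count for both genes. The second annotated start of Ifit1bl1 also had 1 match, while the second start of Ifit1bl2 had none. Neither of the 2 windows upstream of Ifit2 held these letters, which says only that they are not in those windows. A match is a description of the sequence and not a measured binding site.

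**Figure D1:**
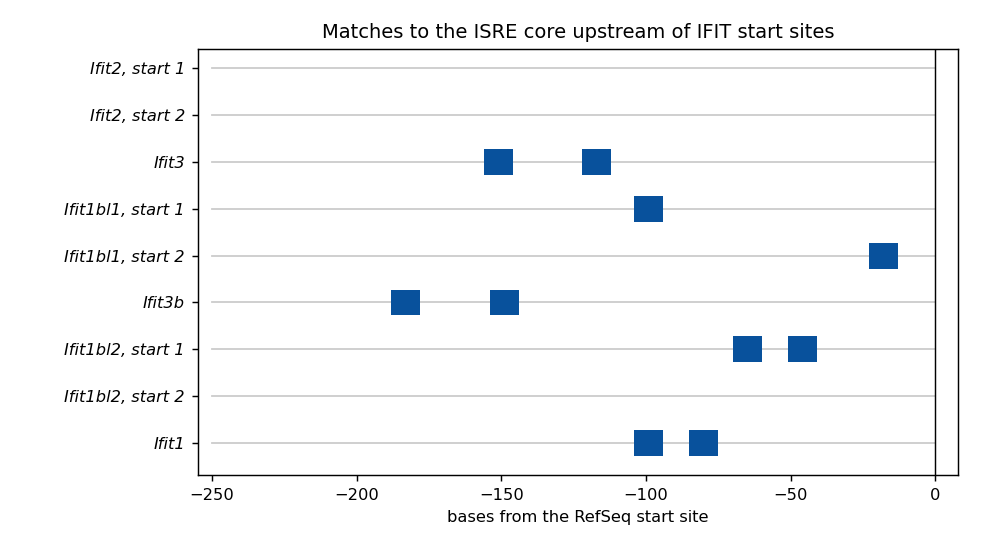
Matches to the ISRE core (blue boxes) in the 250 bases upstream of the 9 RefSeq start sites of the IFIT members, with distance from the start site in bases on the x axis. Ifit3, Ifit3b, Ifit1 and the first start of Ifit1bl2 have 2 boxes, both starts of Ifit1bl1 have 1, and both starts of Ifit2 have none.

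Because reads were assigned to genes by alignment, the likeness of the members bears on their counts. Ifit3 and Ifit3b were 99.1% identical over 1209 coding bases, with 11 mismatches. Ifit1bl1 and Ifit1bl2 were 87.5% identical, and each was about as far from Ifit1 (73.4% and 73.5%). Ifit2 was no more than 55.6% identical to any other member. Of all 50-base windows in the Ifit3 transcript, 51.2% occurred unchanged in another member, and 44.5% of those in Ifit3b. The share was 9.34% in Ifit1bl2, 7.14% in Ifit1, 6.45% in Ifit1bl1 and 0 in Ifit2. The separate values of Ifit3 and Ifit3b are therefore uncertain, since a read from a shared window was placed at one of its equally good positions, whereas Ifit2 is free of this limit at that window length.

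All 6 members were higher in the EKO-labelled cells, whether or not the cells had been pulsed. In OVA-pulsed cells the fold differences ran from 4.43 for Ifit2 to 8.26 for Ifit1bl1, and in unpulsed cells from 5.98 for Ifit2 to 9.76 for Ifit1bl1. In these bulk libraries, more cells expressing a gene and more RNA per cell cannot be told apart. For no member did any EKO-labelled library fall as low as the highest CtrV library of the same condition. Levels below are CPM with library sizes scaled by the trimmed mean of M values (TMM), given as mean ± SD with n = 3, and differences are log2 fold changes. P-values come from edgeR (quasi-likelihood F-test) and were adjusted by Benjamini and Hochberg's method over all 14079 genes.

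Ifit1, the RNA-end sensor, lay at 51.5, 26.4 and 27.6 CPM in OVA-pulsed CtrV replicates 1, 2 and 3 and at 211.5, 275.5 and 280.0 CPM in the EKO-labelled ones. In unpulsed cells it lay at 25.8, 33.8 and 36.9 CPM in CtrV and at 146, 376 and 327 CPM in EKO-labelled libraries. The lowest EKO-labelled library was thus well above the highest CtrV library in both conditions. The means were 35.2 ± 14.2 against 256 ± 38.3 CPM with OVA and 32.2 ± 5.69 against 283 ± 121 CPM without it. The log2 fold change was 2.81 (SE 0.35, adjusted p = 8.68e-05) with OVA and 3.11 (SE 0.36, adjusted p = 4.88e-05) without.

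Ifit2, the member with no shared windows, encodes a partner of IFIT3. OVA-pulsed CtrV libraries held 119, 67.9 and 74.2 CPM and EKO-labelled ones 286, 487 and 462 CPM. Unpulsed libraries held 61.5, 81.7 and 77.0 CPM in CtrV against 202, 606 and 563 CPM. Replicate 1 was the lowest EKO-labelled library in both conditions and still exceeded every CtrV value. The log2 fold change was 2.15 (SE 0.36, adjusted p = 0.000636) with OVA and 2.58 (SE 0.36, adjusted p = 0.000209) without, the smallest of the 6 point estimates in both comparisons.

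Ifit3 lay at 44.7, 18.6 and 24.6 CPM in OVA-pulsed CtrV and at 136, 222 and 249 CPM in OVA-pulsed EKO-labelled libraries. Its values without OVA were 19.5, 25.6 and 32.4 CPM against 87.6, 310.0 and 305 CPM. Ifit3b, its near copy, followed it closely, at 26.8, 11.4 and 14.9 CPM against 91.0, 145 and 163 CPM with OVA. Without OVA, Ifit3b lay at 11.6, 15.97 and 19.03 CPM against 56.6, 209 and 199 CPM. The libraries of each of the 4 groups fell in the same order for both genes. Ifit3 differed by 2.66 (SE 0.46, adjusted p = 0.000749) and 3.12 (SE 0.46, adjusted p = 0.000299), and Ifit3b by 2.78 (SE 0.45, adjusted p = 0.00053) and 3.25 (SE 0.46, adjusted p = 0.000224), with and without OVA. With the 2 genes' counts added together, the OVA-pulsed difference was 2.71 (SE 0.46, adjusted p = 0.000712).

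Ifit1bl1 and Ifit1bl2 are Ifit1-like genes of the mouse. Ifit1bl1 lay at 13.9, 8.49 and 11.1 CPM in OVA-pulsed CtrV and at 82.8, 90.9 and 112 CPM in OVA-pulsed EKO-labelled libraries, and unpulsed at 9.17, 10.8 and 12.1 CPM against 45.3, 149 and 132 CPM. Its log2 fold changes, 3.05 (SE 0.34, adjusted p = 4.12e-05) and 3.29 (SE 0.35, adjusted p = 3.06e-05), were the highest of the family in point estimate. Ifit1bl2 was the least expressed member, with only 28 to 76 counts per CtrV library and 117 to 365 per EKO-labelled one. Its levels were 2.05, 0.846 and 1.16 CPM against 5.62, 8.07 and 8.89 CPM with OVA, and 1.09, 1.43 and 1.03 CPM against 4.29, 12.0 and 10.5 CPM without. It differed by 2.4 (SE 0.36, adjusted p = 0.000341) and 2.88 (SE 0.38, adjusted p = 0.000148). With the counts of Ifit1, Ifit1bl1 and Ifit1bl2 added together, the OVA-pulsed difference was 2.86 (SE 0.35, adjusted p = 7.38e-05).

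**Figure D2:**
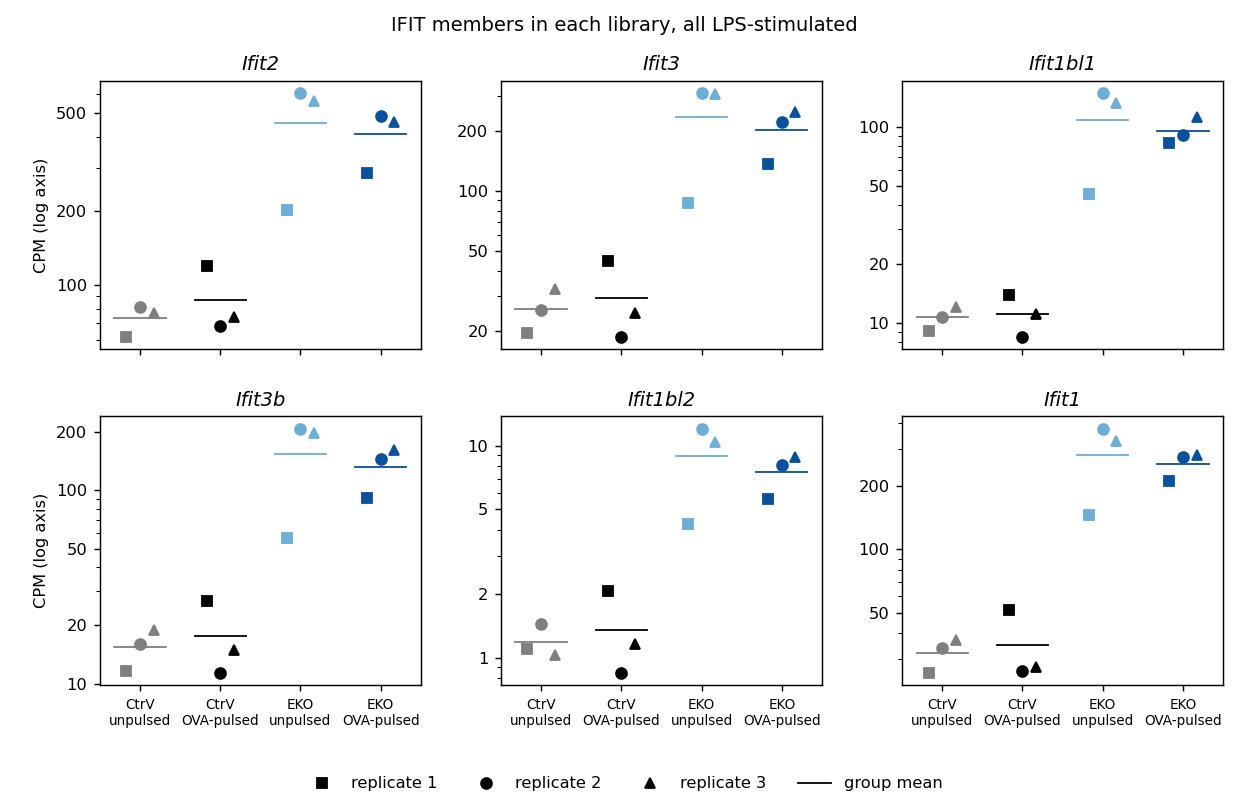
CPM of each IFIT member (log axis) in the 12 libraries, with the 4 groups along the x axis, a point for each library shaped by replicate number, and a line at the group mean. In every panel the 6 EKO-labelled libraries lie above the 6 CtrV libraries, replicate 1 is the lowest of both EKO-labelled groups, and replicate 1 is the highest of the OVA-pulsed CtrV group.

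So 6 of 6 members were called higher with OVA, where 25.1% of all tested genes were called higher, and 6 of 6 without OVA, where 24.5% were. Groups did not overlap, with EKO-labelled libraries higher, for 27.0% and 24.1% of all tested genes, and for 6 of 6 members in each condition. The median log2 fold change of the members was 2.72 with OVA and 3.12 without, beside a median of 0.00 over all tested genes in both. With OVA, Ifit1bl1 ranked 70 and Ifit2 ranked 244 of 14079 genes by log2 fold change, the other members falling between them. Without OVA, Ifit1bl1 ranked 49 and Ifit2 ranked 133.

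**Figure D3:**
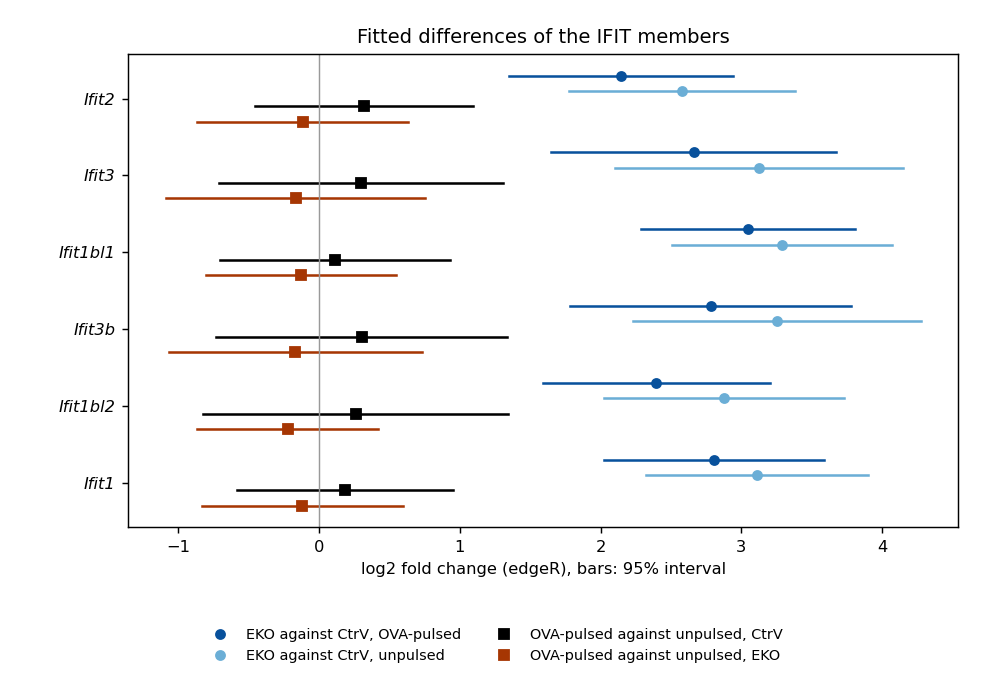
Log2 fold changes of the 6 members with 95% intervals (horizontal bars) in the 2 line comparisons (circles) and the 2 pulsing comparisons (squares). Every interval of the line comparisons lies above 0, the lowest bound being 1.35 for Ifit2 with OVA, and every interval of the pulsing comparisons includes 0.

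Summed over the family, 129 to 258 CPM came from IFIT genes in the 6 CtrV libraries and 542 to 1662 CPM in the 6 EKO-labelled ones. As a share of all counts this was 0.0131% to 0.0259% against 0.0532% to 0.162%. Of 5 ratios between members, 3 separated the lines. Counts of Ifit1 per count of Ifit2 were 0.372 to 0.479 in the CtrV libraries and 0.566 to 0.739 in the EKO-labelled ones, and counts of Ifit3 per count of Ifit2 were 0.274 to 0.421 against 0.433 to 0.541. Counts of Ifit3 per count of Ifit3b, in contrast, were 1.60 to 1.70 in CtrV and 1.48 to 1.55 in EKO-labelled libraries. In these 3 ratios the 6 libraries of one line did not overlap those of the other. The other 2 overlapped, with Ifit1bl1 per Ifit1 at 0.271 to 0.401 in CtrV against 0.310 to 0.402 and Ifit1bl2 per Ifit1 at 0.028 to 0.042 against 0.027 to 0.032. The ratios were picked after the values were seen and were not tested.

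Levels of different genes were compared as CPM per kilobase of exon. In CtrV cells Ifit2 was first, at 18.7 ± 2.7 unpulsed and 22.2 ± 7.12 OVA-pulsed, followed by Ifit3 at 14.8 ± 3.70 and 16.8 ± 7.82 and Ifit1 at 12.1 ± 2.14 and 13.3 ± 5.33. The ranges of these 3 genes overlapped between libraries, but within each of the 6 CtrV libraries the order was Ifit2, then Ifit3, then Ifit1. In EKO-labelled cells Ifit3 was first by its mean, at 134 ± 72.7 unpulsed and 116 ± 33.6 OVA-pulsed, with Ifit2 at 116 ± 56.5 and 105 ± 27.9 and Ifit1 at 107 ± 45.5 and 96.3 ± 14.4, and these neighbours did not differ beyond their spread. Ifit2 exceeded Ifit3 per kilobase in 6 of 6 CtrV libraries and in 1 of 6 EKO-labelled ones. Below them the order was the same in all 12 libraries, with Ifit3b (7.77 ± 1.87 in unpulsed CtrV, 77.4 ± 42.6 in unpulsed EKO-labelled cells) above Ifit1bl1 (4.73 ± 0.65 and 48.0 ± 24.5) and Ifit1bl2 last (0.352 ± 0.064 and 2.65 ± 1.22).

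Pulsing with OVA made no detected difference to the family. The line comparisons above and the pulsing comparisons here share libraries. In CtrV the log2 fold changes of OVA-pulsed over unpulsed cells ran from 0.11 for Ifit1bl1 (95% interval -0.70 to 0.93) to 0.32 for Ifit2 (-0.45 to 1.10), and in EKO-labelled cells from -0.22 for Ifit1bl2 (-0.86 to 0.42) to -0.11 for Ifit2 (-0.86 to 0.63). None of the 6 members was called in either comparison by edgeR, nor was any of the 14079 genes (0% called). No member had an unadjusted p under 0.05, against 231 genes (1.64% of those tested) in CtrV and 394 (2.80%) in EKO-labelled cells. DESeq2 and limma voom also called 0 genes in both. Over all 6 members the intervals reached up to 1.35 (Ifit1bl2 in CtrV) and down to -1.08 (Ifit3 in EKO-labelled cells).

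Nor was the difference between the lines shown to depend on pulsing. The interaction, that is the log2 fold change between lines with OVA minus that without, was negative for all 6 members, from -0.48 for Ifit1bl2 (95% interval -1.74 to 0.77) to -0.24 for Ifit1bl1 (-1.29 to 0.81). By edgeR, 0 members and 0 genes overall were called (0% called). At an unadjusted p under 0.05 there were 269 genes (1.91% of those tested) and no member, and 0 genes were called by DESeq2 or limma voom.

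The spread between replicates was wide, and the 6 genes moved together in it. Replicate 1 was the lowest library for all 6 members in both EKO-labelled groups, its median log2 deviation from the group mean being -1.05 unpulsed and -0.44 OVA-pulsed. In OVA-pulsed CtrV, replicate 1 was instead the highest for all 6, at a median of 0.64. Matching libraries by replicate number, the EKO-labelled minus CtrV difference in OVA-pulsed cells had a median over members of 1.68 in replicate 1, 3.39 in replicate 2 and 3.33 in replicate 3. In unpulsed cells these medians were 2.22, 3.53 and 3.23. The difference was positive for 6 of 6 members in every one of these pairs.

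Of the 12 libraries, OVA-pulsed CtrV replicate 1 raised the OVA-pulsed differences most when left out, but it was not alone in raising them. Leaving EKO-labelled replicate 1 out of both conditions, a fit chosen after the data were seen, also raised all 6. They then lay between 2.54 for Ifit2 and 3.26 for Ifit3b. Without OVA-pulsed CtrV replicate 1, the log2 fold change rose to 2.78 for Ifit2, 3.55 for Ifit3, 3.67 for Ifit3b, 3.17 for Ifit1bl2 and 3.47 for Ifit1, each a change in fold of more than 1.5 times, and to 3.55 for Ifit1bl1. All 6 remained called after leaving out any one of the 12 libraries, with the lowest value at 1.81 and the highest adjusted p at 0.00627 in OVA-pulsed cells, and 2.32 and 0.00321 in unpulsed cells. Over all genes, in either direction, these fits called 5171 to 6993 in OVA-pulsed and 5364 to 6476 in unpulsed cells. Without OVA-pulsed CtrV replicate 1, 5 of the 6 interaction estimates changed in fold by more than 1.5 times, to between 0.27 and 0.50, and in CtrV the pulsing estimates of the same number of members moved to between -0.59 and -0.34, none of them called. OVA-pulsed CtrV replicate 1 and OVA-pulsed EKO-labelled replicate 1 were also the most deeply sequenced libraries, at 36876844 and 39698572 counts, and the part of depth in these values was not tested.

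Pulsing was also read within each replicate number. In replicate 1 all 6 members were higher with OVA in both lines, by a median of 0.97 log2 units in CtrV and 0.59 in EKO-labelled cells. Replicate 2 showed the reverse, with all 6 lower in both lines, at medians of -0.40 and -0.50. In replicate 3 the medians were -0.24 and -0.26, with 1 of 6 members higher in CtrV and none in EKO-labelled cells. The sign of the median was thus the same in both lines for each replicate number, which is a description of 6 pairs and was not tested. Whether the numbers pair libraries across pulsing is uncertain in CtrV, where deviations over all tested genes correlated at 0.09, 0.18 and 0.38. In replicate 1 the library furthest from its group mean was the OVA-pulsed one in CtrV (median 0.64) and the unpulsed one in EKO-labelled cells (-1.05).

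**Figure D4:**
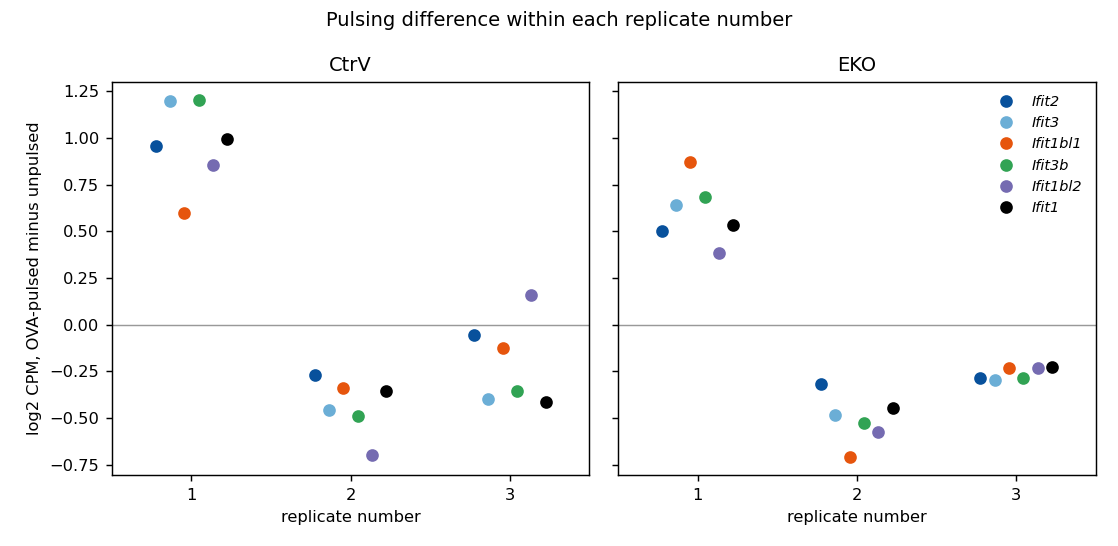
Difference in log2 CPM between OVA-pulsed and unpulsed cells (y axis) within each replicate number (x axis), in CtrV at left and EKO-labelled cells at right, with a point for each member. All points of replicate 1 lie above 0 and all points of replicate 2 lie below it in both lines.

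Across the 12 libraries, members were compared by the root mean square difference of their log2 CPM after centring each gene on its own mean, so that 0 would be the same pattern. Ifit3 and Ifit3b were the closest pair, at 0.065. They were followed by Ifit1bl1 and Ifit1 at 0.18 and by Ifit2 and Ifit1bl2, also at 0.18. The most distant pair was Ifit2 and Ifit1bl1, at 0.42, which are also the members with the smallest and the highest fold change. The standard deviation of a single member over the libraries was 1.27 to 1.62, so all pairs were close beside it. All 12 points share the same libraries and their line difference, and Ifit3 and Ifit3b also share sequence.

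Outside the family, the genes most like the members by the same measure included other genes known to be interferon-induced. Ifit1 lay nearest to Hsh2d, which encodes an adaptor protein with an SH2 domain (0.14), then Ddx60, a helicase with a role in antiviral sensing (0.17), and the predicted gene Gm7609 (0.18). Ifit2 lay nearest to Irf7, the factor that amplifies interferon production (0.17), then Rsad2, which encodes the antiviral enzyme viperin (0.19), and the class I-like gene H2-T24 (0.21). Ddx60 and Hsh2d were among the 3 nearest of Ifit3 (0.25 and 0.26), Ifit3b (0.26 and 0.24) and Ifit1bl1 (0.27 and 0.23). Ddx60 was the nearest of Ifit1bl2 (0.19), with Gm7609 and H2-T24 next. The remaining places went to Gm7609 for Ifit3, Gm21188 for Ifit1bl1 and, for Ifit3b, Cth, an enzyme of cysteine synthesis that was close to the detection limit in CtrV, at 0.091 to 0.27 CPM. In the promoter table the ISRE core occurred 2 times upstream of Ddx60 and 1 time upstream of Rsad2, and not in the windows of Irf7, Hsh2d, Gm7609 or Gm21188.

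The pathway that switches the family on was examined through lists of its ligands, receptors, factors and inhibitors. Of 9 genes of interferon ligand and receptor signalling, 8 were tested. In OVA-pulsed cells 5 were higher in the EKO-labelled line and 1 lower, beside 25.1% and 21.9% of all tested genes. Ifnb1, the interferon beta ligand, lay at 0.121 to 0.189 CPM in OVA-pulsed CtrV and 2.28 to 3.60 CPM in EKO-labelled libraries (log2 fold change 4.29, SE 0.55, adjusted p = 0.000105). Stat2 (0.93, SE 0.17) and Irf9 (0.77, SE 0.12), which carry the receptor signal to the nucleus, and the receptor kinase gene Tyk2 (0.24, SE 0.07) were also higher. The gene lower was Ifnar2, a receptor chain (-0.31, SE 0.06). In unpulsed cells 5 were again higher and 1 lower, beside 24.5% and 21.9% of all tested genes.

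Replicate 1 of the unpulsed EKO-labelled cells, the lowest for the IFIT members, was also the lowest of its group for Ifnb1, at 0.843 CPM beside 6.76 and 3.46 CPM. In OVA-pulsed CtrV, where replicate 1 was highest for the members, it was also highest for Ifnb1, at 0.189 CPM beside 0.121 and 0.133 CPM. These values are 7, 4 and 4 counts, too few to order the libraries. Ifnb1 was close to the limit of detection in the CtrV libraries, where 3 counts amount to at most 0.107 CPM. Not every pathway gene followed the members, since Ikbke, described below, was highest in replicate 1 of both EKO-labelled groups.

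Among 4 IRF factors that act upstream of interferon, only Irf7 was called higher in OVA-pulsed cells, a share near the 25.1% of all tested genes. Irf7 lay at 32.5 to 66.5 CPM in CtrV against 204 to 270 CPM (2.28, SE 0.35, adjusted p = 0.000348). None of the 4 was called lower. Irf3, which acts directly on IFIT promoters, had a value of -0.04 (SE 0.06, adjusted p = 0.61). Without OVA, where 24.5% of all tested genes were called higher, Irf7 and Irf1 were higher. Irf1, at 0.23 (adjusted p = 0.0363), had an adjusted p of 0.33 without the replicate block. Of 7 genes of cytosolic RNA sensing, the other arm by which RNA triggers interferon, 6 were higher and 1 lower in both conditions, beside 25.1% and 21.9% of all tested genes with OVA and 24.5% and 21.9% without. Ikbke, a kinase that activates IRF3 and IRF7, lay at 2.22 to 4.76 CPM against 23.0 to 53.1 CPM in OVA-pulsed cells (3.51, SE 0.24, adjusted p = 9.68e-07). Dhx58, which encodes the regulatory helicase LGP2, lay at 42.0 to 74.0 CPM against 151 to 175 CPM (1.63, SE 0.25, adjusted p = 0.000338). The gene lower was Mavs, the adaptor on mitochondria (-0.20, SE 0.05, adjusted p = 0.00435).

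In the list of interferon signalling inhibitors, in which Isg15 was placed, 5 of 7 genes were higher and 1 lower with OVA (25.1% and 21.9% of all tested genes). Without OVA, 6 were higher and 1 lower (24.5% and 21.9%). Whether each of these genes restrains signalling in these cells was not tested. Isg15, a ubiquitin-like modifier that USP18 removes from its targets, lay at 41.4 to 98.6 CPM against 301 to 368 CPM (2.38, SE 0.37, adjusted p = 0.000413), and Usp18, which blocks the receptor chain IFNAR2, at 186 to 254 CPM against 703 to 845 CPM (1.83, SE 0.19, adjusted p = 2.16e-05). Ptpn2, a phosphatase of the JAK-STAT pathway, was lower (-0.17, SE 0.05, adjusted p = 0.013). Without the replicate block the calls of Socs1 (adjusted p = 0.0594 with OVA and 0.179 without) and Ptpn11 (0.0895 and 0.0793) were lost.

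Genes for what IFIT proteins read or bind were examined as well. Of 4 genes of mRNA cap methylation, only Cmtr1 was called higher, a share near that of all tested genes (25.1% with OVA, 24.5% without). Cmtr1, which adds the 2′-O methyl group that keeps IFIT1 from binding, lay at 134 to 162 CPM in OVA-pulsed CtrV. In OVA-pulsed EKO-labelled libraries it lay at 198 to 216 CPM (0.51, SE 0.08, adjusted p = 0.000573). The other 3 were not called in either condition. Of 14 genes for eIF3 subunits, 5 were higher and 2 lower with OVA, and 4 higher and 3 lower without, shares near those of all tested genes (25.1% higher and 21.9% lower with OVA, 24.5% and 21.9% without). No difference in this list exceeded 0.25 upward or -0.28 downward. Those with the largest differences with OVA were Eif3k (-0.26, SE 0.05, adjusted p = 0.00206) and Eif3j2 (0.25, SE 0.06, adjusted p = 0.00433). The call of Eif3m (0.14, adjusted p = 0.04996) with OVA had an adjusted p of 0.0618 without the replicate block.

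The median log2 fold change with OVA was 0.51 for interferon ligand and receptor signalling, 0.07 for the IRF factors, 1.31 for RNA sensing, 0.45 for the inhibitors, 0.10 for cap methylation and 0.10 for eIF3, beside 0.00 over all tested genes. None of these lists reached the members' median of 2.72. In the interaction and in both pulsing comparisons no gene of any list was called.

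The neighbours of the cluster did not all share the difference. Of the 8 nearest named protein-coding genes, 4 on each side, 6 were tested. Their calls stand beside 25.1% of all tested genes called higher and 21.9% lower with OVA, and 24.5% and 21.9% without. Lipa, the lysosomal lipase gene 23220 bases below Ifit2, lay at 169.5 to 176 CPM in OVA-pulsed CtrV and 153 to 185 CPM in EKO-labelled cells, and was not called (-0.04, SE 0.07, adjusted p = 0.61). Ch25h, beyond Lipa at 75530 bases, encodes cholesterol 25-hydroxylase, itself an interferon-induced enzyme, and was higher, at 3.05 to 4.74 CPM against 8.39 to 15.9 CPM (1.67, SE 0.15, adjusted p = 8.47e-06). Fas, the death receptor gene, was not called (0.42, SE 0.31, adjusted p = 0.29). Acta2, smooth muscle actin, was under the filter, with no library above 0.22 CPM.

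On the other side, Slc16a12, a transporter gene 18394 bases above Ifit1, had 0 counts in all 12 libraries. Pank1, a kinase of coenzyme A synthesis, was lower, at 13.7 to 15.2 CPM against 10.5 to 11.7 CPM with OVA (-0.37, SE 0.07, adjusted p = 0.00192). Kif20b, a mitotic motor protein gene, was also lower, at 77.3 to 93.7 CPM against 38.7 to 66.6 CPM (-0.64, SE 0.14, adjusted p = 0.00389). Htr7, a serotonin receptor gene 1308725 bases away, was called higher from few counts (2.77, SE 0.83, adjusted p = 0.0187), with an adjusted p of 0.0624 without the replicate block. Without OVA, Ch25h and Htr7 were again higher and Pank1 and Kif20b lower. The calls of Htr7, Pank1 and Kif20b there were lost without the replicate block, at adjusted p of 0.103, 0.0765 and 0.0753. None of the 8 neighbours had the ISRE core in its promoter windows, and neither did most promoters in the whole table.

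**Figure D5:**
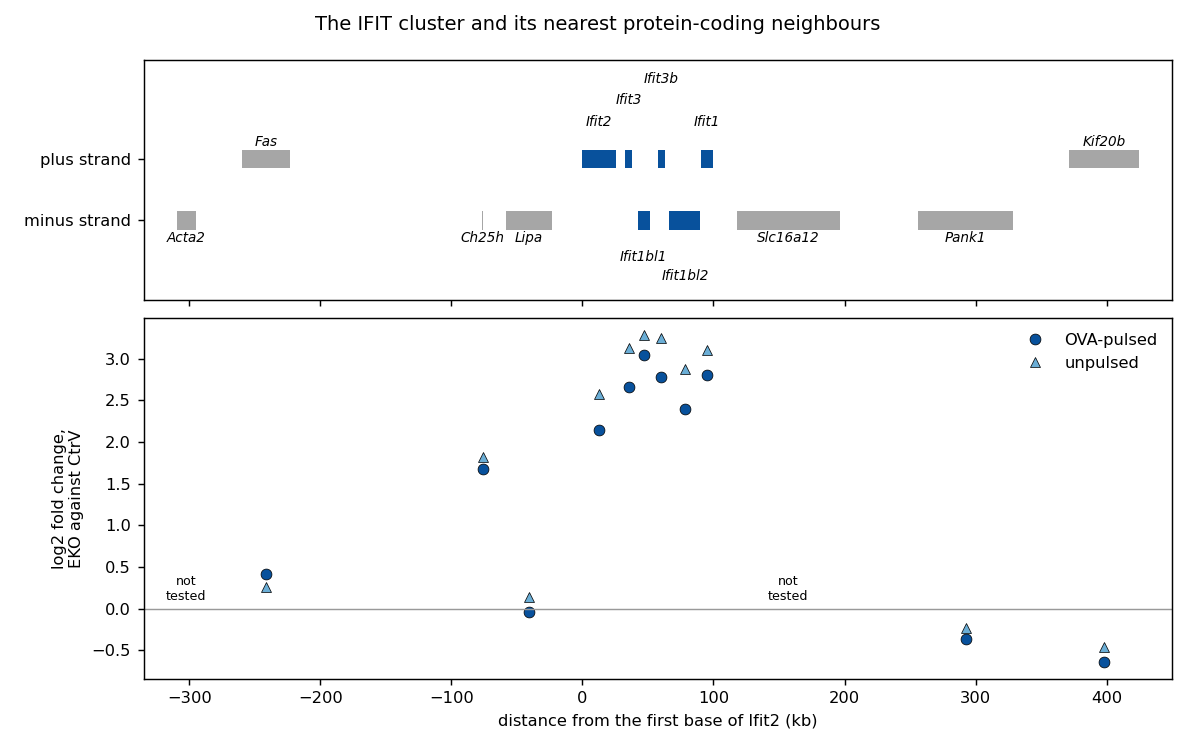
Map of the IFIT members (blue) and 7 of their 8 nearest named protein-coding neighbours (grey) on each strand, above the log2 fold change of EKO-labelled over CtrV libraries at the middle of each gene, with distance from the first base of Ifit2 in kilobases on the x axis. The 6 members stand at 2.15 to 3.29, Ch25h at 1.67 and 1.82, and Lipa at -0.04 and 0.13, while Htr7 lies outside the map.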

How the data were processed

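Poly(A)-selected stranded RNA libraries were sequenced by the authors from 12 samples. Per the paper's methods, reads were aligned to mm10 with STAR, allowing several hits and reporting a single location, sorted with SAMtools, and counted over the exon union of each Ensembl gene with featureCounts. Whether strand was used in counting is not given in the sources used here. The deposited file holds raw counts per gene.

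From these counts, genes with log2 CPM above 0 in at least 2 libraries were kept (14079 of 55401). They were normalised by TMM and fitted with edgeR 4.0.16 (quasi-likelihood, all 12 libraries, group plus replicate number as covariate, which the study's methods name) in R 4.3.3. Adjusted p under 0.05 (Benjamini-Hochberg, all tested genes) was called. DESeq2 1.42.0 and limma 3.58.1 were alternatives. The test was also run on simulated counts with the same spread for every gene and no shift shared by replicates. That setting differs from these libraries, so it does not check the calls reported here.

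Whether the replicate numbers pair libraries was checked by correlating deviations from the group means over all tested genes. For replicates 1, 2 and 3 the correlations were 0.45, 0.30 and 0.30 between the lines with OVA and 0.07, -0.01 and 0.27 between the lines without it. Between unpulsed and OVA-pulsed libraries they were 0.71, 0.36 and 0.42 in EKO-labelled cells and 0.09, 0.18 and 0.38 in CtrV. Every pair exceeded 0.1 between the lines with OVA and across pulsing in EKO-labelled cells, but not between the lines without OVA or across pulsing in CtrV.

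The 6 members and the gene lists were chosen with earlier results of these data known. Named are all members, the 8 neighbours, the 2 called genes with the largest difference with OVA from each pathway list, and the 3 genes nearest each member in pattern. Other list members are named where they were the gene lower, act below the interferon receptor or lost a call, chosen after their values were seen. One gene that the rule names is not reported here. Gene coordinates came from GENCODE M21, an annotation that may differ from the gene models used for counting, and promoters from RefSeq. CPM per kilobase used the exon union. Intervals are 95%.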

Additional observations from a re-analysis of the deposited data

How the results depend on the processing

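All 6 members were called higher in both line comparisons, and none in the other 3 comparisons, under every alternative that was run: DESeq2, limma voom, other normalizations, other filters, no replicate block, only the libraries compared, an adjusted p under 0.01, a log2 fold change of at least 1, summed paralogs, and each library left out (6 called in each line comparison and 0 elsewhere throughout). Over the alternatives that kept all libraries of the groups compared, the OVA-pulsed log2 fold changes lay between 2.11 and 3.13 and the unpulsed ones between 2.49 and 3.35. Without the replicate block, 6 members were called in each line comparison, with values of 2.24 for Ifit2 and 3.09 for Ifit1bl1 with OVA, and the count over all genes was 5413 in place of 6619. Counts over all genes in these alternatives, in either direction, ran from 1268 to 6993 with OVA and from 1241 to 6774 without. The lowest of them, 1268 and 1241, came from requiring a log2 fold change of at least 1. In the other comparisons 0 genes were called. With windows of 75 bases in place of 50, the share found in another member was 41.1% for Ifit3, 35.7% for Ifit3b, 5.34% for Ifit1bl2, 5.19% for Ifit1 and 1.92% for Ifit1bl1, since longer windows are more often broken by a mismatch.

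Alternatives chosen after seeing the data left out replicate 1. The line differences then lay between 2.54 and 3.56 with OVA and between 2.88 and 3.81 without, with all 6 members called. Over all genes these fits called 4955 to 5973 with OVA and 5324 to 6199 without, in either direction. Leaving it out of all groups gave 5 genes called overall in the interaction and 4 in the pulsing comparison of EKO-labelled cells, none of them a member. Protein identity was not computed, and coding sequence was used instead. Ifit1bl2 rests on the fewest counts.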
